A study of Mus musculus with 96 samples.

Results

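The liver of male C57BL/6N mice kept for 24 weeks on a high-fat diet (HFD) was compared with that of mice kept for as long on a chow diet (CD). The libraries were selected by the diet, tissue, week and mouse number in the sample labels, which gave HFD611, HFD614, HFD616 and HFD617 on one side and CD601, CD605, CD606 and CD608 on the other. These are 8 of the 48 liver libraries, and 8 of the 96 libraries of the series as a whole. The study fed both diets to separate mice, took islets and liver every 4 weeks up to week 24, and measured poly(A) RNA after random hexamer priming on a BGISEQ-500 instrument. It asked how liver and islets change together while diet-induced diabetes develops.

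The mice were 4 weeks old when purchased. HFD was Research Diets D12492 with 60% fat, and CD was LabDiet 5001 with 13.5% fat. The paper names as a limitation that the diets are not matched in their other ingredients, among them protein and vitamins. The fat content and the other components therefore cannot be told apart. One liver library came from each mouse, and the same part of the organ was frozen in every animal.

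A liver that receives more fatty acid than it can burn or export stores the surplus as triglyceride in droplets, whose coats are built by perilipins and CIDE proteins. Resident macrophages of the liver, the Kupffer cells, share the sinusoids with a specialised endothelium and with stellate cells, and monocyte-derived macrophages that carry TREM2 and GPNMB are known from fatty liver. Hepatocytes also secrete most plasma proteins, make cholesterol and clear drugs and retinoids through cytochromes P450, and load on their endoplasmic reticulum (ER) is met by the unfolded protein response.

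The deposited values were FPKM, fragments per kilobase of transcript scaled to the number of mapped fragments. They summed to between 565886 and 621970 in the 8 libraries, and between 9902 and 10350 genes reached 1 FPKM. Read totals were not among the values, so the depth was estimated from the spacing of low values, where 1 fragment on a transcript of 1 kb was worth between 0.0303 and 0.0348 FPKM. That corresponds to between 28.7 and 33.0 fragments for each FPKM, an estimate from 97 to 111 short genes per library. A gene at 1 FPKM thus rested on about 30 fragments per kilobase of transcript, and values under 1 FPKM on short transcripts carry large counting error. All 12 hepatocyte markers were tested. The most abundant was Alb (albumin), at a mean of 24490 FPKM in CD and 24018 in HFD, a level that matched the tissue label. Of these markers 7 had a positive log2 fold change and none passed the test, while the list's median of 0.034 turned negative under median-ratio scaling, upper-quartile scaling and removal of the GC trend.

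HFD617 stood apart from the other libraries. On the first principal component of log2(FPKM + 1), which held 32.9% of the variance, its weight was 0.691 against -0.378 to 0.369 in the other 7. Its values followed the GC content of the transcripts, with a slope of 0.353 log2 units per 10% GC (r = 0.604 across genes, which are not independent replicates), against slopes between -0.100 and -0.001 in the other 7. Its median deviation from the 8-library mean ran from -0.43 in the bin of genes with the lowest GC content to 0.25 in the bin with the highest, of 10 equal bins. Genes chosen after their values were seen set it apart as well. Ddx3y, a Y-linked RNA helicase, was at 3.42 FPKM in HFD617 and between 7.86 and 10.1 in the others, and Ins2, an insulin gene, was at 272 FPKM against 4.18 to 48.1. Ins1 was at 115 FPKM against 2.26 to 20.1. Results that rest on HFD617 are therefore also given without it, as 1 of the planned omissions of single mice, and some with the GC trend of each library removed, an alternative chosen after seeing the data. The part of these features in the diet differences was not tested.

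**Figure D1:**
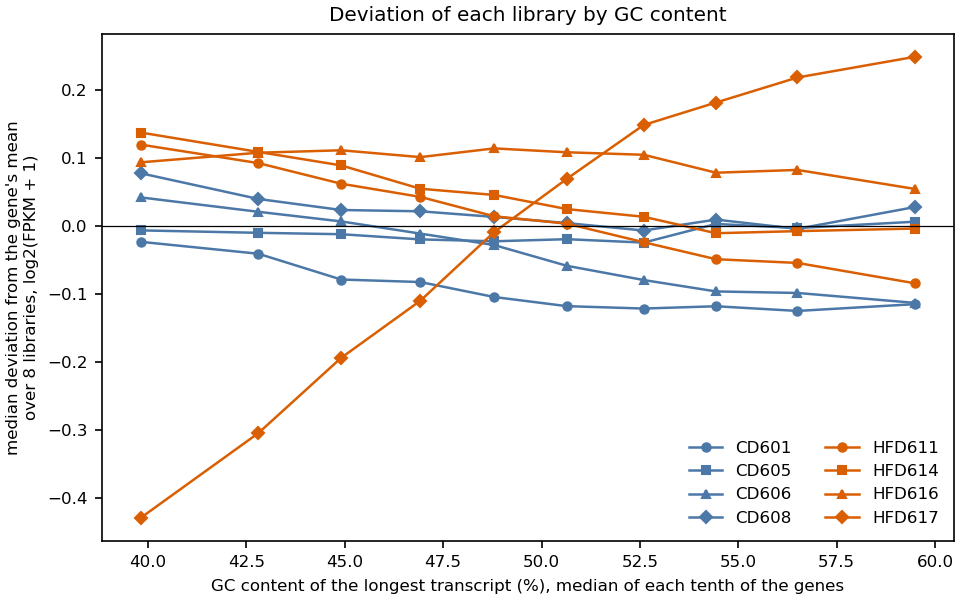
Median deviation of each library from the gene's mean over the 8 libraries, in log2(FPKM + 1), plotted against the median GC content in % of each of 10 equal bins of genes. HFD617 climbs from -0.43 to 0.25, whereas the other 7 libraries stay between -0.12 and 0.14.

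Markers of pancreatic acinar cells were uneven among the HFD mice. Only 1 of 12, Cela1, reached the filter, and it was also the most abundant (18.7 FPKM in CD and 14.3 in HFD). The summed level of the list was 11.3, 30.6, 22.9 and 18.2 FPKM in CD601, CD605, CD606 and CD608, and 15.5, 9.16, 87.7 and 31.6 in HFD611, HFD614, HFD616 and HFD617, an order of mice kept for all values that follow. HFD616 was the highest, with the protease genes Prss2 at 10.8 FPKM and Ctrb1 at 20.99, and HFD617 came next with 1.92 and 2.64, where the other 6 livers reached at most 0.47 in both. Both also had a higher mean log2(FPKM + 1) of the list (2.75 and 1.33) than any CD liver (up to 0.69). Acute phase transcripts were uneven among the CD mice, since the most abundant of them, Saa1 (serum amyloid A1), was at 27112 FPKM in CD601 and between 7289 and 8693 in the other CD livers.

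Genes were tested if 4 or more of the 8 livers reached 1 FPKM. Of these 10152 genes 85 passed an adjusted p of 0.05 in limma, 66 of them higher in HFD (0.65% of the genes tested) and 19 lower (0.187%). Differentially expressed genes (DEGs), for which the log2 fold change also had to reach 1 in size, numbered 39 (0.384%), of which 29 were higher and 10 lower. At an unadjusted p under 0.05 stood 1587 genes. Groups that did not overlap, with all 4 HFD values above or below all 4 CD values, were seen in 826 genes on the higher side (8.14%) and 195 on the lower side (1.92%), and all 85 genes past the test were among them. Of the 85, 17 reached the filter through the HFD livers, with at most 1 CD liver at 1 FPKM, and 3 through the CD livers. Over all 10152 genes tested the numbers were 64 and 17. Among the genes past the test named below, those past the filter in this way were Atf3, Slc35f2, Crybg2, Gpnmb, Osbpl3, Trem2, Ccl2 and Mmp12 on the higher side and Cyp26a1 on the lower. Over all genes tested the median log2 fold change was 0.055, and 62.5% of the values were above 0. With median-ratio scaling that share was 46.4%, so small positive values carry little weight here.

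Many calls were lost when 1 mouse was left out, which also left only 7 libraries in the fit. The part of the smaller number of libraries in these losses was not tested. Of the 85 genes, 14 still passed without CD601, 24 without HFD616, 31 without CD608, 40 without CD606, 42 without CD605, 44 without HFD617, 67 without HFD614 and 71 without HFD611. In all 8 of these fits 12 genes passed, and 10 of the 12 were DEGs. A lost call need not mean a lost fold change. In these fits the log2 fold change stayed between 1.32 and 1.67 for Cd36, 0.51 and 0.59 for Sec31a and 0.83 and 1.17 for Haus8. With the GC trend of each library removed, 107 genes passed, 77 of them among the 85.

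Adgrv1, a very large adhesion receptor best known from inner ear hair cells, showed the smallest p. Its level was 1.01, 3.04, 2.22 and 1.58 FPKM in the CD livers and 34.8, 16.4, 26.1 and 29.5 in the HFD livers. Every HFD mouse lay far above every CD mouse, and the log2 fold change was 3.23 (SE 0.25, adjusted p = 0.0020), on the log2(FPKM + 1) scale that understates changes of low genes. The gene (Entrez 110789) lies at chr13:81095066-81633388 in GRCm38.p6. Without single mice its adjusted p reached at most 0.012, which was the value without HFD617.

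Among genes lower in HFD the smallest p belonged to a ligand of the receptor NKG2D, through which natural killer cells recognise stressed cells. Raet1d was at 8.06, 12.4, 13.9 and 14.5 FPKM in CD and at 2.66, 2.45, 2.50 and 1.70 in HFD. The groups were well apart, and CD601 was the lowest of the CD mice (log2 fold change -1.97, SE 0.17, adjusted p = 0.0021). Its relative Raet1e was at 5.07, 5.53, 6.89 and 6.74 FPKM in CD and at 1.57, 1.49, 2.06 and 0.75 in HFD, and fell by 1.54 on the log2 scale (SE 0.17, adjusted p = 0.0037). The copies of this family are close to identical, so that how the fragments were divided between them is uncertain. Both calls held in each of the 8 fits that left out a mouse.

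Further DEGs that held in each of those fits were Uap1l1, Ifi27l2b, Cadm4 and Slc35f2. Uap1l1, related to an enzyme of nucleotide sugar synthesis, was at 3.0, 4.07, 4.37 and 3.86 FPKM in CD against 13.5, 11.8, 23.8 and 20.96 in HFD (log2 fold change 1.89, SE 0.21, adjusted p = 0.0037). HFD616 and HFD617 were the highest and no HFD value came near a CD value. Ifi27l2b, of the interferon-inducible Ifi27 family, was at 8.60, 7.30, 3.69 and 5.53 FPKM in CD against 20.4, 29.4, 26.8 and 29.3 in HFD (log2 fold change 1.95, SE 0.21, adjusted p = 0.0037). It overlaps Serpina1d on the opposite strand, and since the use of strand in the library is not given in the sources used here, its level is uncertain. Cadm4, a cell adhesion molecule, fell from 13.1, 9.63, 9.01 and 10.0 FPKM to 4.02, 3.69, 2.95 and 2.32 (log2 fold change -1.44, SE 0.15, adjusted p = 0.0037). Slc35f2, a membrane transporter, reached the filter through the HFD livers, was between 0.13 and 0.43 FPKM in the CD livers and was at 2.90, 1.59, 2.44 and 1.99 in HFD (log2 fold change 1.30, SE 0.14, adjusted p = 0.0037).

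Of 11 tested genes of fatty acid uptake and binding 3 rose in HFD past the test (0.65% of all genes). Cd36, a fatty acid translocase of the plasma membrane, was at 13.3, 22.6, 24.0 and 20.3 FPKM in CD and at 49.1, 70.0, 79.0 and 38.6 in HFD. HFD617 was the lowest HFD value and still above every CD value (log2 fold change 1.49, SE 0.24, adjusted p = 0.026). Lpl, the lipase that frees fatty acids from lipoproteins, was at 2.17, 2.38, 2.59 and 2.83 FPKM in CD and at 6.87, 5.50, 8.08 and 3.79 in HFD (log2 fold change 0.98, SE 0.18, adjusted p = 0.039). Again HFD617 was the lowest of its group without reaching the CD range. Pparg, the nuclear receptor that drives fat storage, was the steadiest of the 3, at 3.41, 3.39, 3.51 and 4.01 FPKM in CD and 7.29, 8.18, 9.22 and 8.70 in HFD. Its log2 fold change was 1.03 (SE 0.10, adjusted p = 0.0025) and it passed in all 8 fits without a mouse. The call of Cd36 was lost without CD601, CD605, CD608 or HFD616, where its adjusted p reached 0.082, and with no filter. For Lpl the call was kept without HFD614 or HFD617 and lost without any of the other 6, with an adjusted p up to 0.146, and with no filter. Across the list 9 of 11 genes had a positive log2 fold change, 7 with median-ratio scaling, and the median was 0.33, beside 0.055 over all genes. The most abundant member, the cytosolic carrier Fabp1, had no call, with means of 4347 FPKM in CD and 3187 in HFD (log2 fold change -0.46, adjusted p = 0.62).

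Among 16 tested lipid droplet genes 13 had a positive log2 fold change, 12 with median-ratio scaling. Past the test was 1 (0.65% of all genes on the higher side). Cidea, a CIDE protein that enlarges droplets, was at 0.03, 11.8, 0.93 and 1.81 FPKM in CD and at 74.4, 36.5, 77.9 and 86.3 in HFD. CD605 stood above the other CD mice and HFD614 below the other HFD mice, yet the groups were widely separated, and the log2 fold change of 4.51 (SE 0.72, adjusted p = 0.039) was the largest of the DEGs. The call was kept only without CD605 and lost without any of the other 7 mice, with an adjusted p up to 0.133 and of 0.080 without HFD617. It was also lost with a pseudocount of 0.1. Cidec, its relative, was at 0.94, 10.3, 6.69 and 2.07 FPKM in CD and 35.4, 22.9, 50.5 and 57.1 in HFD, also without overlap, but missed the threshold (log2 fold change 3.07, SE 0.57, adjusted p = 0.062). Cidec passed without CD605, in 1 fit of all 48 liver libraries, and without the mean-variance trend and robust variances. The coat protein Plin2, the most abundant of the list, ranged from 192 to 818 FPKM in CD and from 175 to 462 in HFD, and the ranges overlapped (adjusted p = 0.84). The list's median was 0.21.

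Triglyceride synthesis genes had a median of 0.31, with 10 of 12 positive and 1 past the test (0.65% of all genes on the higher side). Mogat1, which acylates monoacylglycerol, was at 0.59, 1.95, 0.99 and 1.13 FPKM in CD and at 5.76, 3.65, 6.6 and 8.74 in HFD. The HFD livers were all higher, HFD614 least so (log2 fold change 1.72, SE 0.24, adjusted p = 0.012), and the call was lost without CD601 or HFD616 with an adjusted p up to 0.057. Dgat2, which completes triglyceride, was the most abundant member at 216, 220, 197 and 259 FPKM in CD and 282, 315.2, 335 and 386 in HFD. Its groups did not overlap, and it missed the threshold (log2 fold change 0.56, SE 0.14, adjusted p = 0.094). None of 16 genes of de novo lipogenesis, elongation and desaturation passed, and 10 of them had a negative log2 fold change (median -0.099). The most abundant, the elongase gene Elovl3, was at 74.9, 207.8, 428 and 76.1 FPKM in CD and 85.3, 15.0, 54.5 and 56.2 in HFD (log2 fold change -1.73, SE 0.70, adjusted p = 0.30), and HFD611 lay inside the CD range. The synthase gene Fasn had means of 12.1 FPKM in CD and 13.2 in HFD. Fatty acid oxidation and ketogenesis had 15 of 27 positive values and no call, and its median of 0.0072 was negative under median-ratio scaling, upper-quartile scaling, GC trend removal and without CD601, HFD616 or HFD617.

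**Figure D2:**
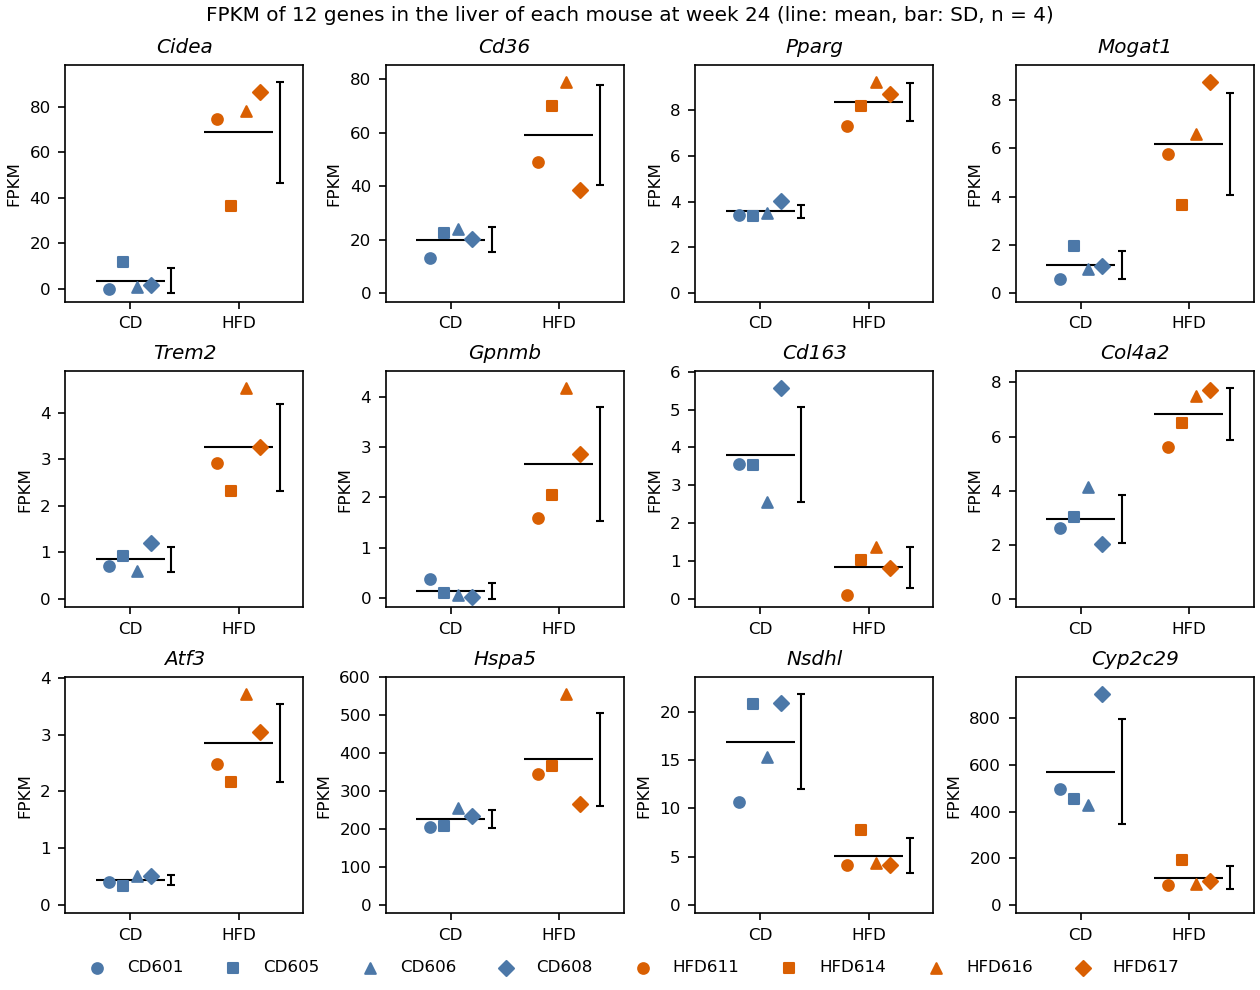
FPKM of 12 genes in each liver, with CD mice in blue and HFD mice in orange, a line at the group mean and a bar of 1 SD (n = 4). The groups do not overlap in any of the 12 genes, and Hspa5 is the only one of them that did not pass the test (adjusted p = 0.13).

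Of 17 markers of monocyte-derived and lipid-associated macrophages 12 were tested, 9 had a positive log2 fold change, 5 rose in HFD past the test (0.65% of all genes) and 6 had groups that did not overlap (8.14%). Of the 12, 3 (Trem2, Gpnmb and Mmp12) reached the filter through the HFD livers, so these counts and the median of 0.80 support nothing by themselves. The median was 0.63 without a filter and 0.14 with a filter of 5 FPKM. In whole liver, fewer or more cells of a type and less or more RNA per cell cannot be told apart. Trem2, a lipid-sensing receptor, was at 0.70, 0.92, 0.60 and 1.2 FPKM in CD and at 2.91, 2.32, 4.53 and 3.26 in HFD. All HFD livers were above all CD livers, HFD616 most (log2 fold change 1.18, SE 0.16, adjusted p = 0.012), and the call was lost only without CD601 (adjusted p = 0.060). Gpnmb, a transmembrane glycoprotein of the same macrophages, stayed at 0.38 FPKM or less in CD and was at 1.59, 2.04, 4.17 and 2.86 in HFD. It passed in all 8 fits without a mouse (log2 fold change 1.64, SE 0.20, adjusted p = 0.0065). Cd63, a lysosomal and endosomal tetraspanin found in many cell types, was at 6.87, 5.58, 6.74 and 4.23 FPKM in CD and 12.0, 21, 24.7 and 20.8 in HFD (log2 fold change 1.56, SE 0.21, adjusted p = 0.012). HFD611 was the lowest HFD liver for it, and leaving out CD601 or HFD617 ended the call (adjusted p up to 0.053).

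Mmp12, the macrophage metalloelastase, stayed between 0.17 and 0.32 FPKM in CD and was at 4.01, 1.27, 5.90 and 2.73 in HFD. The HFD livers spread widely among themselves (log2 fold change 1.75, SE 0.28, adjusted p = 0.026), and the call ended without any single CD mouse or without HFD617 (adjusted p up to 0.089). Capg, an actin capping protein of phagocytes, was at 1.58, 1.95, 1.47 and 1.56 FPKM in CD and 4.21, 2.48, 5.56 and 4.88 in HFD (log2 fold change 0.97, SE 0.18, adjusted p = 0.039). It kept its call only without HFD614, the adjusted p without any other mouse reached up to 0.146, and the call was lost under both scalings and with no filter. Lyz2, lysozyme of myeloid cells and the most abundant marker, was at 27.2, 30.4, 20.5 and 30.7 FPKM in CD and 42.1, 36.8, 68.2 and 30.7 in HFD, with HFD617 barely above the highest CD liver (adjusted p = 0.21). The summed level of the 17 genes was 120, 136, 121 and 102 FPKM in CD and 143, 129, 209 and 130 in HFD. By this sum HFD614 and HFD617 fell inside the CD range, while in the mean of log2(FPKM + 1) all 4 HFD livers (2.43, 2.13, 2.90 and 2.43) were above the CD livers (1.84, 1.96, 1.85 and 1.82). Without HFD617 the list kept 2 genes past the test. None of the 17 markers was at 0 in all 8 libraries.

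Ccl2, the chemokine that draws monocytes, was the only 1 of 12 tested chemokine and receptor genes to pass (0.65% of all genes higher). It reached the filter through the HFD livers. Its level was 0.34, 0.22, 0.61 and 0.40 FPKM in CD and 1.05, 2.49, 1.93 and 1.98 in HFD. HFD611 was nearest to the CD mice (log2 fold change 1.02, SE 0.16, adjusted p = 0.021), and the call was lost without CD601, CD605, CD608, HFD616 or HFD617 (adjusted p up to 0.089) and in 1 fit of all 48 liver libraries. Cxcl10, an interferon-induced chemokine, did not overlap either, with 1.1, 1.11, 1.61 and 1.17 FPKM in CD and 4.71, 2.08, 3.72 and 6.95 in HFD (log2 fold change 1.18, SE 0.24, adjusted p = 0.065). The list had 9 positive values of 12 and a median of 0.24. As Ccl2 is among them through the filter, these values support nothing by themselves.

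All 13 Kupffer cell markers were tested, and 2 of them reached the filter through the CD livers. Of the 13, 5 were positive, 1 fell past the test (0.187% of all genes) and the median was -0.20. Because of the filter, these values support nothing by themselves. Cd163, the haemoglobin scavenger receptor, was at 3.57, 3.55, 2.56 and 5.57 FPKM in CD and at 0.11, 1.02, 1.37 and 0.83 in HFD. It was low in every HFD liver, lowest in HFD611, and fell by 1.41 on the log2 scale (SE 0.25, adjusted p = 0.032). This call ended without CD601, CD605, CD608, HFD616 or HFD617, with an adjusted p up to 0.112, and with a pseudocount of 0.1 or no filter. Timd4, a phosphatidylserine receptor of long-lived Kupffer cells, was at 2.17, 2.74, 1.78 and 2.90 FPKM in CD and at 0.34, 0.63, 2.07 and 0.66 in HFD. HFD616 lay inside the CD range and the gene did not pass (log2 fold change -0.88, SE 0.23, adjusted p = 0.117). Clec4f, the marker most particular to mouse Kupffer cells, had means of 28.2 ± 8.62 FPKM in CD and 22.5 ± 7.24 in HFD (SD, n = 4, adjusted p = 0.63). The summed level of the list was 256, 306.1, 207.6 and 329 FPKM in CD and 277, 168, 343 and 266 in HFD, HFD614 being below and HFD616 above every CD liver, with Cd5l the most abundant at 44.6 and 45.2 FPKM.

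Markers of other leukocytes were near the limit of measurement. Of 16 T and NK cell genes only Ccl5 was tested (log2 fold change 0.25, adjusted p = 0.74), and of 10 B cell genes none was, the most abundant being Cd79b at 0.49 FPKM in CD and 0.40 in HFD. The 3 tested neutrophil genes were all negative without a call, led by S100a8 at 6.42 FPKM in CD and 2.51 in HFD (adjusted p = 0.24). Of the adipocyte markers 4 of 8 were tested, all positive and none past, while the defining hormone gene Lep was at 0 in all 8 libraries and Adipoq was at 0.03 FPKM or less. Cholangiocyte markers had 2 tested genes, both negative and without a call.

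Of 22 tested matrix genes 19 had a positive log2 fold change, with a median of 0.44. Past the test were 2 (0.65% of all genes on the higher side), Col4a2 and the Mmp12 described above. As Mmp12 reached the filter through the HFD livers, the count of 2 supports nothing by itself. Col4a2, a chain of basement membrane collagen, was at 2.63, 3.04, 4.13 and 2.03 FPKM in CD and 5.61, 6.50, 7.48 and 7.71 in HFD. The groups did not overlap (log2 fold change 1.00, SE 0.16, adjusted p = 0.025), but the call was lost without CD601, CD605, CD608, HFD616 or HFD617 (adjusted p up to 0.099). Its neighbour Col4a1 lies on the opposite strand and overlaps it, so the levels of both are uncertain. Col1a1, the main chain of fibrillar collagen, was at 2.81, 1.25, 2.05 and 0.52 FPKM in CD and at 4.01, 4.12, 8.56 and 11.1 in HFD. HFD616 and HFD617 were well above HFD611 and HFD614, and the gene missed the threshold (log2 fold change 1.56, SE 0.36, adjusted p = 0.094). Col1a2 behaved alike, with 3.16 FPKM in the highest CD liver and 3.19 in the lowest HFD liver (log2 fold change 1.28, SE 0.32, adjusted p = 0.106). Without HFD617 no gene of the list passed and its median was 0.34. HFD616 and HFD617 also had the highest mean log2(FPKM + 1) of the pancreatic acinar markers (2.75 and 1.33). The part of this in the matrix and stellate cell values was not tested. Fn1, fibronectin from hepatocytes, was the most abundant at 310 and 303 FPKM.

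All 11 tested stellate cell markers had a positive log2 fold change (median 0.26), 9 of them with median-ratio scaling, and none passed. Their summed level was 143, 123, 109 and 111 FPKM in CD and 96.1, 161, 190 and 207.96 in HFD, so that HFD611 was below every CD liver and the other 3 above. Most abundant was Ecm1 (51.5 FPKM in CD and 65.4 in HFD). Sinusoidal endothelial markers leaned the other way, with 10 of 12 negative, also under median-ratio scaling, a median of -0.36 and no call. Their sums were 98.1, 78.1, 117 and 88.6 FPKM in CD and 56.8, 58.3, 80.9 and 87.2 in HFD, so that HFD616 and HFD617 overlapped the CD range. Clec4g, a lectin of this endothelium and the most abundant of the list, was at 25.7, 21.7, 33.7 and 23.8 FPKM in CD and 12.1, 12.2, 16.9 and 20.1 in HFD. It did not overlap between diets and did not pass (log2 fold change -0.75, SE 0.18, adjusted p = 0.096).

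All 22 genes of the unfolded protein response and ER chaperones had a positive log2 fold change, 22 also with the GC trend removed or without HFD617. The count was 20 with median-ratio scaling and 19 at the lowest over the alternatives. Without HFD616 the values of Canx, Dnajc3 and Hsp90b1 were negative. The median was 0.42, 8 genes did not overlap between the diets (8.14% of all genes on the higher side), and 1 passed (0.65%). Eif2ak3, which encodes the ER stress kinase PERK, was at 3.45, 3.55, 3.14 and 2.74 FPKM in CD and at 4.85, 5.04, 6.01 and 5.04 in HFD. All HFD livers were above all CD livers (log2 fold change 0.56, SE 0.11, adjusted p = 0.040), but the call was kept only without HFD611 and the adjusted p without any other mouse reached up to 0.144. The call was also lost with no filter, under both scalings (median-ratio and upper-quartile), in the 48-library fit and with the GC trend removed (adjusted p = 0.052). Hspa5, the ER chaperone BiP, was at 206, 206.6, 255 and 235 FPKM in CD and at 345, 365, 556 and 267 in HFD. HFD616 was far above the rest and HFD617 just above the CD range (log2 fold change 0.72, SE 0.20, adjusted p = 0.129). The most abundant member, the lectin chaperone Calr, overlapped, with 301, 451, 570 and 365 FPKM in CD and 569, 558, 685 and 590 in HFD (adjusted p = 0.20). Manf (0.74, adjusted p = 0.087), Hyou1 (0.79, 0.087) and Syvn1 (0.76, 0.098) had larger log2 fold changes than Hspa5, also without overlap or a call. The mean log2(FPKM + 1) of the list was 5.46, 5.57, 5.83 and 5.57 in CD and 6.06, 5.93, 6.42 and 5.85 in HFD, HFD617 being closest to CD606.

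Since these genes shared a direction, the 250 bases before each gene's start were searched on both strands for the ER stress response element, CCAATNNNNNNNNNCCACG, in RefSeq promoter sequences of GRCm38.p6. Of the 19 list members with a sequence 8 held it (42.1%), against 35 of 27025 genes with a sequence (0.13%) and 15 of 8211 tested ones (0.183%). The holders were Hspa5, Hsp90b1, Dnajc3, Pdia6, Calr, Canx, Creld2 and Syvn1. Without overlap between the diets were 3 of these 8 (Hspa5, Creld2 and Syvn1), close to the 8 of 22 of the whole list. The element and the list were both chosen for the ER stress response, so the share of 42.1% is no independent result. It is a property of the sequences and not of the diets. A match is a description of the letters and no measure of binding. The windows of all 8 holders are shown to compare the element between members, in the direction of the gene, with 20 bases on either side and with capitals for the outer parts of the element. It lies on the other strand in Calr and Creld2, and Hsp90b1 has 2 matches, 1 on each strand. They are from chr2:34772005-34772063 on the plus strand for Hspa5, chr8:84847055-84847113 on the minus strand for Calr, chr12:17266471-17266529 on the plus strand for Pdia6, chr15:88819500-88819558 on the plus strand for Creld2 and chr19:6046512-6046570 on the plus strand for Syvn1, where the element ends 46, 143, 79, 107 and 25 bases before the gene start. The others are from chr10:86705513-86705676 on the minus strand for Hsp90b1, chr11:50325780-50325838 on the minus strand for Canx and chr14:118937807-118937865 on the plus strand for Dnajc3, with the element, the last one in Hsp90b1, ending 88, 126 and 86 bases before the start. These 3 had log2 fold changes of 0.17, 0.039 and 0.077.
Hspa5: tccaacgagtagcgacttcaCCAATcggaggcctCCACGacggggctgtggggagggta
Calr: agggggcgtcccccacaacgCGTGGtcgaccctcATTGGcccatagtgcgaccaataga
Pdia6: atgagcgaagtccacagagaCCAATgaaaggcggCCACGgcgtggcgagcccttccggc
Creld2: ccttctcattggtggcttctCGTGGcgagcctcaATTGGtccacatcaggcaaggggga
Syvn1: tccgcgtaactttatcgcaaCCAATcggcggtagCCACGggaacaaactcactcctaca
Hsp90b1: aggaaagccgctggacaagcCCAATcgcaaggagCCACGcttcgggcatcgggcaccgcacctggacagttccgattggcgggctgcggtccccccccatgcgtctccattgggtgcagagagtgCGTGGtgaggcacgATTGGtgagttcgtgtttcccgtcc
Canx: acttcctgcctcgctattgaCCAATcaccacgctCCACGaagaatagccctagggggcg
Dnajc3: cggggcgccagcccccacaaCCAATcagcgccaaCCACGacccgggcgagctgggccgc

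Genes of the integrated stress response, the arm downstream of eIF2 phosphorylation, had a median of 0.65 with 12 of 15 tested positive, 1 past the test (0.65% of all genes) and 6 without overlap (8.14%). As 3 of the 15 reached the filter through the HFD livers, these values support nothing by themselves. Atf3, a stress-induced transcription factor, was at 0.41, 0.34, 0.51 and 0.51 FPKM in CD and 2.48, 2.16, 3.72 and 3.05 in HFD. The CD livers were nearly level and all HFD livers several times higher (log2 fold change 1.40, SE 0.13, adjusted p = 0.0021). The call held in all 8 fits without a mouse and was lost in the 48-library fit. Ddit3, the factor CHOP, was at 6.08, 6.06, 8.2 and 7.18 FPKM in CD and 11.2, 24.6, 17.7 and 9.0 in HFD (log2 fold change 0.99, SE 0.26, adjusted p = 0.119). Here HFD614 was the highest and HFD617 the lowest HFD liver. Gdf15, a secreted stress hormone, was at 3.99, 12.2, 8.91 and 8.76 FPKM in CD and at 62.5, 12.6, 38.9 and 17.5 in HFD, where HFD614 barely exceeded CD605 (log2 fold change 1.66, SE 0.51, adjusted p = 0.17). Trib3 and Nupr1, both targets of CHOP or ATF4, had log2 fold changes of 1.25 (adjusted p = 0.087) and 1.6 (adjusted p = 0.10). The transcript of Atf4 itself overlapped between diets, with means of 49.1 ± 3.70 FPKM in CD and 45.3 ± 7.62 in HFD (SD, n = 4). None of the 19 members with a promoter sequence held the ER stress response element.

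Of 25 cholesterol synthesis and uptake genes 23 had a negative log2 fold change, also under median-ratio scaling, with a median of -0.44, and 2 passed (0.187% of all genes on the lower side). Nsdhl, which removes methyl groups from sterol intermediates, was at 10.6, 20.8, 15.3 and 20.9 FPKM in CD and at 4.09, 7.79, 4.37 and 4.18 in HFD. HFD614 was the highest HFD liver and CD601 the lowest CD liver, and the gene fell by 1.54 on the log2 scale (SE 0.24, adjusted p = 0.021). Tm7sf2, a sterol reductase, was at 88.3, 65.1, 35.7 and 83.4 FPKM in CD and at 15.9, 11.4, 13.2 and 28.0 in HFD (log2 fold change -1.93, SE 0.33, adjusted p = 0.033). It overlaps Vps51 on the same strand, so that its level is uncertain. The call of Nsdhl was lost without CD605, CD606, CD608, HFD616 or HFD617 (adjusted p up to 0.081) and that of Tm7sf2 was kept only without CD606 or HFD617 (up to 0.126 without the others) and lost with no filter or one of 5 FPKM. Sqle, squalene epoxidase, showed how HFD614 differed, at 4.96, 17.5, 10.5 and 8.51 FPKM in CD and at 1.27, 9.08, 1.01 and 0.62 in HFD (adjusted p = 0.20). The list's mean log2(FPKM + 1) was 4.13, 4.72, 4.41 and 4.57 in CD and 3.63, 4.52, 3.69 and 3.62 in HFD, with HFD614 alone inside the CD range.

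Of 28 tested drug-metabolising cytochromes P450 of families 1 to 3, 13 were positive and 1 fell past the test (0.187% of all genes). The list's median was -0.13. In 1 fit of all 48 liver libraries 5 of the list passed, of 370 genes in all. Cyp2c29 was at 497, 453, 430 and 905 FPKM in CD and at 85.2, 191, 87.9 and 104.4 in HFD. The groups were far apart, CD608 being the highest of all, and the gene fell by 2.29 on the log2 scale (SE 0.30, adjusted p = 0.012). Its call was lost without CD601 or HFD617 (adjusted p = 0.052 in both), and since the Cyp2c genes of the cluster are close copies its level is uncertain. Lower without overlap were 7 of the 28 and higher without overlap 1, beside 1.92% and 8.14% of all genes, and the median stayed between -0.30 and -0.076 under all alternatives. As 1 of the 28 reached the filter through the CD livers, these counts and the median support nothing by themselves. Among the 7 was Cyp3a11, the main steroid and drug hydroxylase, at 567, 417, 362 and 369 FPKM in CD and 212.5, 79.0, 169 and 269 in HFD (log2 fold change -1.34, SE 0.34, adjusted p = 0.107). Cyp2e1 was the most abundant, with means of 5521 and 6171 FPKM.

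Of 15 tested genes of retinoid metabolism 1 passed (0.187% of all genes on the lower side). Cyp26a1, which degrades retinoic acid and is induced by it, was at 6.48, 2.48, 3.90 and 12.0 FPKM in CD and stayed between 0.27 and 0.50 in HFD, so that it reached the filter through the CD livers. The CD livers varied several-fold among themselves and the HFD livers were uniformly low (log2 fold change -2.22, SE 0.34, adjusted p = 0.026). Leaving out CD601, HFD616 or HFD617 ended the call (adjusted p up to 0.094). Rbp4, the plasma carrier of retinol and the most abundant of the list, did not overlap between diets, with means of 2873 ± 196 and 3680 ± 454 FPKM (SD, n = 4, adjusted p = 0.26). The list's median of 0.010 changed sign with no filter, under both scalings and GC trend removal, and without CD601, CD608, HFD614 or HFD616.

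Glutathione S-transferases and NRF2 targets had 16 positive values of 25 (62.5% of all genes), and 13 with median-ratio scaling. Of the 25, 1 reached the filter through the HFD livers. The list had a single call (0.187% of all genes on the lower side). Gstp2 was at 8.38, 9.48, 8.38 and 4.74 FPKM in CD and at 2.99, 2.66, 2.42 and 3.79 in HFD, with CD608 near the HFD mice (log2 fold change -1.12, SE 0.19, adjusted p = 0.026). The call was lost without CD601, CD605, CD606 or HFD616 (adjusted p up to 0.112), with no filter and in the 48-library fit. Gstp1, its near-identical neighbour, was far more abundant, with means of 1587 and 1536 FPKM (adjusted p = 0.92), so that the value of Gstp2 depends on how shared fragments were assigned and is uncertain.

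Of 30 acute phase genes 25 had a negative log2 fold change, with a median of -0.42, and none fell past the test. The only call in the list was a rise (0.65% of all genes on the higher side). Cd14, the co-receptor for lipopolysaccharide, was at 1.48, 1.19, 0.88 and 1.2 FPKM in CD and 2.68, 2.24, 2.77 and 2.37 in HFD. The groups were tight and apart (log2 fold change 0.69, SE 0.11, adjusted p = 0.023), and the call was kept without HFD611, HFD614 or HFD617 and lost without any other mouse (adjusted p up to 0.094) and in the 48-library fit. Lower without overlap were 6 genes (1.92% of all genes), of which Mt1, a zinc-binding metallothionein, was at 1806, 1238, 630 and 1922 FPKM in CD and 388, 531, 254 and 506 in HFD (log2 fold change -1.67, SE 0.36, adjusted p = 0.083). Fgg, a fibrinogen chain, was at 4371, 4150, 3969 and 4395 FPKM in CD and at 3702, 2186, 2142 and 2038 in HFD (log2 fold change -0.79, SE 0.20, adjusted p = 0.098). Summed over the list the level was 119159, 63110, 59132 and 68194 FPKM in CD and 52740, 38055, 54267 and 45752 in HFD, lower in all HFD livers. Saa1 and its relatives made CD601 stand out, and without CD601 the same list still had a negative median, as in every other setting tried.

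Other DEGs belonged to none of the lists. Ly6d, a surface antigen anchored by lipid, was at 4.37, 9.28, 6.45 and 5.23 FPKM in CD and at 23.2, 20.1, 47.0 and 37.7 in HFD (log2 fold change 2.13, SE 0.28, adjusted p = 0.012). Anxa2, an annexin that binds membranes in the presence of calcium, was at 5.15, 10.9, 7.87 and 5.51 FPKM in CD and 21.6, 22.1, 40.5 and 29.4 in HFD (log2 fold change 1.82, SE 0.25, adjusted p = 0.012). S100a11, a calcium-binding partner of annexins, was at 14.3, 15.2, 16.8 and 10.2 FPKM in CD and 32.8, 32.9, 54.4 and 50.3 in HFD (log2 fold change 1.51, SE 0.20, adjusted p = 0.012). In all 3 genes HFD616 was the highest liver and HFD617 the next. Ly6d and Anxa2 lost their calls without CD601 or HFD617 (adjusted p up to 0.055 and 0.058) and S100a11 without CD601 (0.055). Osbpl3, an oxysterol-binding protein relative that reached the filter through the HFD livers, stayed at 0.73 FPKM or less in CD and was at 2.90, 2.85, 7.50 and 5.72 in HFD (log2 fold change 2.04, SE 0.26, adjusted p = 0.011, and 0.053 without CD601). Gpc1, a heparan sulfate proteoglycan, was at 2.49, 7.71, 3.98 and 5.45 FPKM in CD and 13.4, 13.3, 20.2 and 23.4 in HFD (log2 fold change 1.69, SE 0.28, adjusted p = 0.029), and its call ended without CD601, CD606, CD608, HFD616 or HFD617 (up to 0.111) or with no filter. Adora1, the adenosine A1 receptor, was at 4.11, 3.50, 1.65 and 4.45 FPKM in CD and 8.06, 11.6, 11.2 and 9.65 in HFD (log2 fold change 1.37, SE 0.21, adjusted p = 0.021), ending without CD601, CD605, HFD616 or HFD617 (up to 0.087).

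Among genes outside the lists and under the fold change of DEGs, a few were chosen after their values were seen. Slco2a1, a prostaglandin transporter, was at 14.6, 11.7, 16.5 and 12.6 FPKM in CD and at 5.39, 7.25, 7.14 and 7.02 in HFD (log2 fold change -0.94, SE 0.13, adjusted p = 0.012, and 0.060 without CD601). Fcna, a lectin secreted by macrophages, was at 19.4, 22.6, 17.8 and 24.4 FPKM in CD and 8.95, 8.66, 13.4 and 13.3 in HFD (log2 fold change -0.88, SE 0.16, adjusted p = 0.039). It fell in all HFD livers, and its call was kept only without HFD617 (up to 0.121 without the others) and lost with no filter, a filter of 5 FPKM or the 48-library fit. Sec31a, a coat protein of vesicles leaving the ER, was at 30.5, 36.0, 33.0 and 31.9 FPKM in CD and 43.6, 47.2, 52.0 and 50.6 in HFD (log2 fold change 0.54, SE 0.10, adjusted p = 0.040), kept only without HFD611 (up to 0.162) and lost under both scalings, with no filter and with a filter of 5 FPKM. Tbc1d31 and Crybg2, each below 2 FPKM in CD and the latter past the filter through the HFD livers, rose by 0.88 on the log2 scale (adjusted p = 0.0049 and 0.0063) and passed in all 8 fits without a mouse.

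A list of 25 liver genes that the study had picked as central from these samples is no independent evidence of its direction. Of its 21 tested genes 20 were positive, 5 passed (0.65% of all genes on the higher side) and 15 did not overlap (8.14%), with a median of 0.50. The genes past the test were Uap1l1, Capg, Lpl and Cd63, given above, and Haus8, a subunit of the spindle complex augmin. Haus8 was at 1.41, 1.82, 2.00 and 1.84 FPKM in CD and 3.97, 2.95, 6.99 and 5.0 in HFD (log2 fold change 1.01, SE 0.19, adjusted p = 0.044). HFD616 was again the highest, and the call was kept only without HFD614 (up to 0.177 without the others) and lost under both scalings, with no filter and with the GC trend removed. Without HFD617, 2 genes of the list passed, and 13 did in 1 fit of all 48 liver libraries.

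The 39 DEGs of week 24 were followed through the earlier weeks, which had other mice and controls of their own. Of those tested at each time, 19 of 27 had the same direction at week 4, 29 of 30 at week 8, 30 of 33 at week 12, 37 of 38 at week 16 and 36 of 36 at week 20. Past the test in that direction were 0, 17, 22, 33 and 23 of them, where over all genes tested 0.0506%, 7.49%, 10.6%, 7.43% and 2.47% passed in either direction. At week 4 limma called 5 genes in all, of 9875 tested, and there CD103, CD104, HFD112 and HFD118 had GC slopes of 0.492, 0.486, 0.352 and 0.245 against the mean of the 48 liver libraries, on which HFD617 had 0.386. Their part in the few calls of week 4 was not tested. Over all genes the log2 fold changes correlated with those of week 24 at r = 0.12, 0.44, 0.47, 0.64 and 0.52 from week 4 to week 20, which is across genes and no test. From week 8 on, the DEGs against their direction of week 24 were Raet1d (log2 fold change 0.34 at week 8 and 0.095 at week 12), Cd163 (0.14 at week 12) and Nsdhl (0.88 at week 12 and 0.25 at week 16, but -1.86 at week 20). The median SD of log2(FPKM + 1) from week 4 to week 24 was 0.157, 0.140, 0.149, 0.146, 0.201 and 0.197 among HFD livers and 0.205, 0.136, 0.150, 0.148, 0.155 and 0.140 among CD livers.

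**Figure D3:**
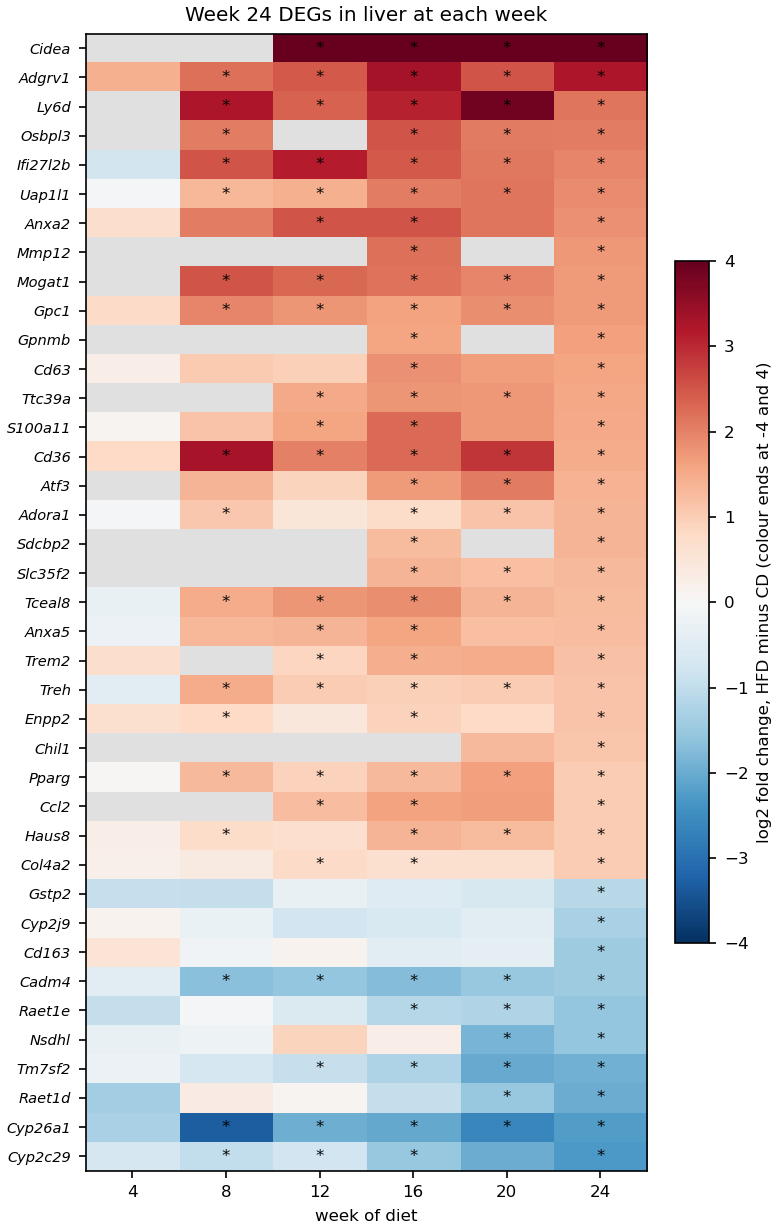
Log2 fold change of HFD against CD, on the log2(FPKM + 1) scale, for the 39 DEGs of week 24 at each of the 6 weeks, with an asterisk where the adjusted p was under 0.05 and grey where a gene was not tested. None carries an asterisk at week 4 and 33 do at week 16.

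Whether the diet effect at week 24 differed from that of the preceding weeks was tested in 1 fit of the 48 liver libraries, as the effect at week 24 minus the mean effect of weeks 12, 16 and 20. Of 10879 genes 5 passed (0.046%), all with a lower effect at week 24 and 0 with a higher one, and 938 had an unadjusted p under 0.05 in limma. Except for Cd163 these genes lie outside the lists and were chosen after their values were seen. Cd163 was also the only one of them that passed the test of HFD against CD at week 24. The calls moved with single mice, from 1 gene without HFD614 to 9 without HFD616.

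C1s2, a complement C1s gene of mice, had the largest difference (-4.07, SE 0.59, adjusted p = 0.00035) and passed in all 8 fits without a mouse. Its log2 fold change at week 24 was -3.94, without a call in the test of that week alone. At week 24 it was at 30.3, 48.9, 4.48 and 37.2 FPKM in CD and at 0.01, 4.81, 0 and 0 in HFD, and it was listed at between 24.4 and 150 FPKM in the livers of both diets at weeks 12 to 20. CD606 lay in the range of HFD614, and the other 3 HFD livers were at or near 0. Its near-identical copy C1s1 was between 180 and 229 FPKM in all 8 livers (log2 fold change 0.14, adjusted p = 0.62). The copies are annotated as overlapping in GRCm38.p6, where C1s2 spans chr6:124530344-124641894, so how fragments were divided between them at each week is uncertain.

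Cd163 had an effect at week 24 below the mean of weeks 12 to 20 (difference -1.2, SE 0.24, adjusted p = 0.028). Its log2 fold change was 0.14, -0.42 and -0.35 at weeks 12, 16 and 20, and CD means were 1.25, 1.33 and 2.18 FPKM against 3.81 at week 24. The call ended without CD601, CD605, CD608, HFD611 or HFD614, with a pseudocount of 0.1 (adjusted p = 0.117) and against week 20 alone (0.168). Gas6, a ligand of the receptors TYRO3, AXL and MERTK on macrophages, was at 44.2, 43.4, 30.8 and 44.7 FPKM in CD and at 20.3, 20.7, 25.4 and 40.3 in HFD at week 24, HFD617 lying in the CD range. At week 20 it had means of 20.4 FPKM in CD and 54.1 in HFD, a difference in the other direction (difference of effects -1.43, SE 0.28, adjusted p = 0.028), and leaving out the same 5 mice ended the call (up to 0.161), as did a comparison with the mean of weeks 4 to 20 (0.120). Csf2rb, the shared beta chain of the receptors for GM-CSF and IL-3, differed by -0.94 (SE 0.18, adjusted p = 0.027), with a call lost without CD605, CD606 or HFD614 (up to 0.161) and against the mean of weeks 4 to 20 (0.120). Fam25c differed by -1.69 (SE 0.35, adjusted p = 0.041), and of the omissions of a mouse its call outlasted only those of HFD616 and HFD617 (up to 0.333 without the others). It was lost against the mean of weeks 4 to 20 (0.127) and against week 20 alone (0.104).

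Of the 40 lists 16 held at least 1 gene past the test and 24 held none. The lists together name 690 different genes, of which 538 were tested.

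**Figure D4:**
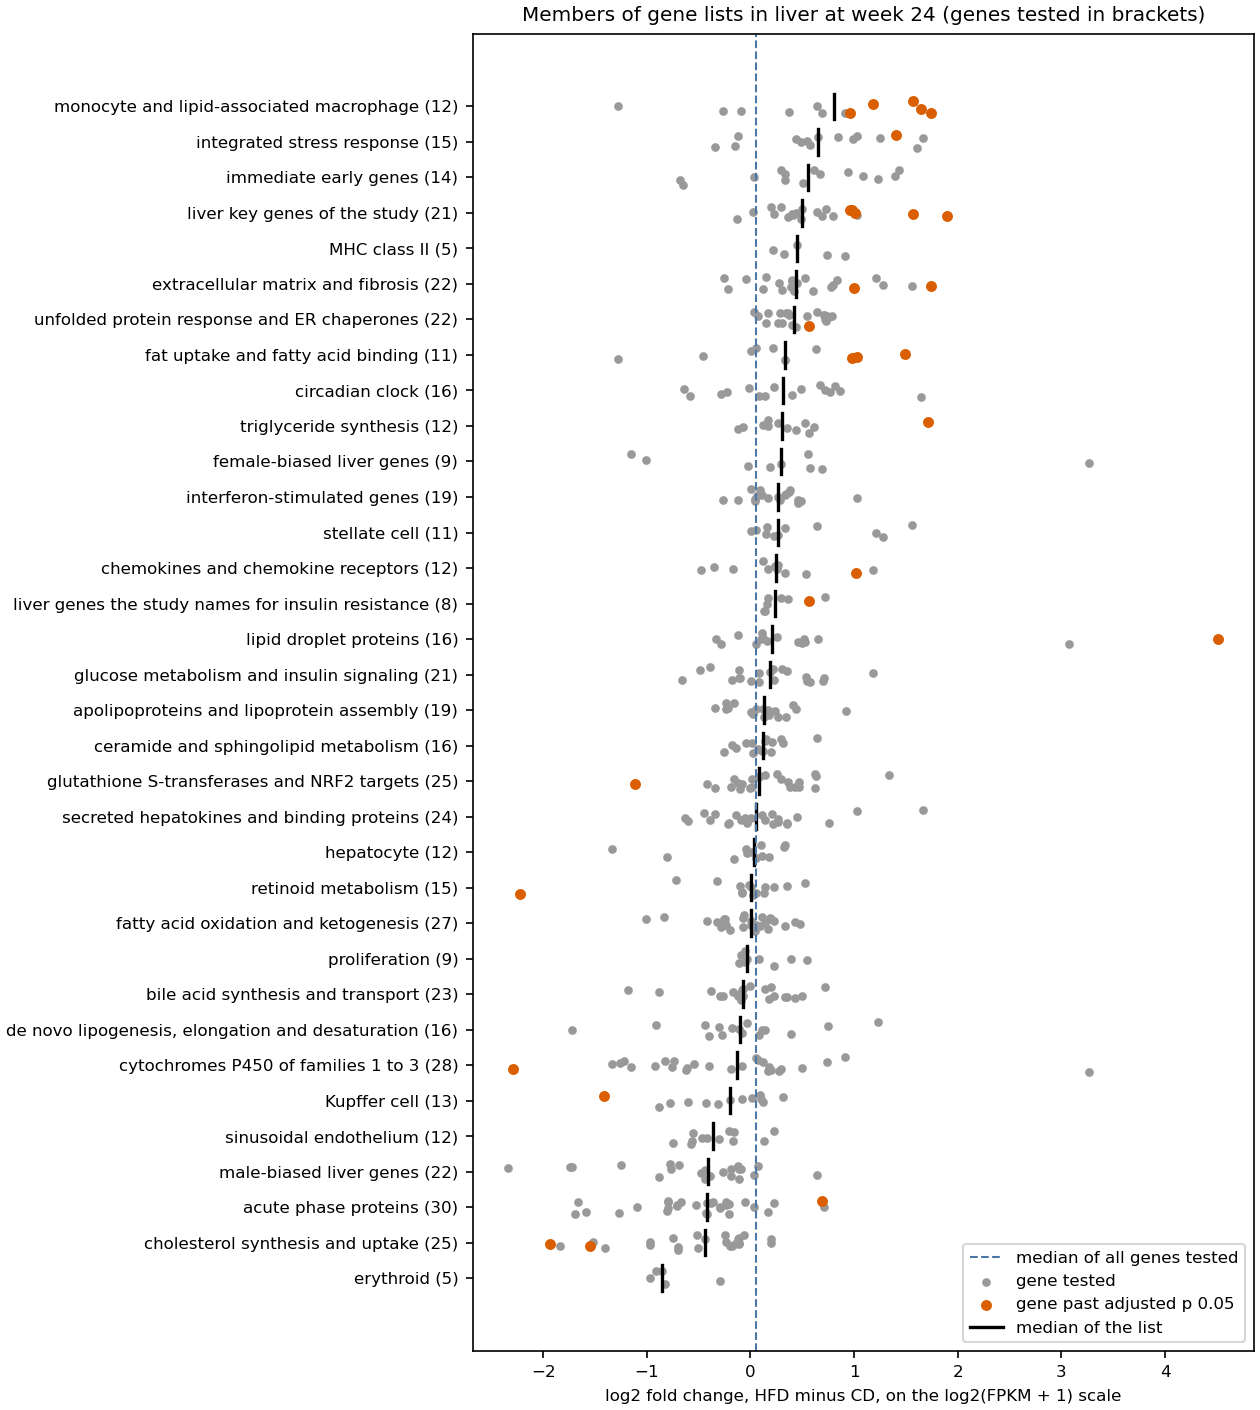
Log2 fold change of HFD against CD for each tested member of the lists with at least 5 tested genes (number in brackets), ordered by the list's median (black tick), with genes past an adjusted p of 0.05 in orange and the median over all 10152 genes, 0.055, as a dashed line. Orange points on the left belong to Kupffer cell, cholesterol, cytochrome P450, retinoid and glutathione S-transferase genes, with 2 in cholesterol synthesis and 1 in each of the others.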

How the data were processed

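The table deposited by the authors gave FPKM for 21990 genes, of which 20155 had values, rounded to 2 decimals. The submitters' processing notes name HISAT2 2.0.4, Bowtie2 2.2.5, RSEM 1.1.12 and genome GRCm38.p5. The mean FPKM, log2 ratios, p-values and q-values of the authors' own comparisons (DEGseq per the file headers, DESeq2 per the labels) were not used, nor were 48 islet columns.

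FPKM were transformed to log2(FPKM + 1). Genes that reached 1 FPKM in 4 or more of the 8 livers (3 or more where a CD or HFD mouse was left out) were tested by limma 3.58.1 in R 4.3.3, with a mean-variance trend, robust variances and Benjamini-Hochberg adjustment over all genes tested. One model with 12 groups served the 48 liver libraries, for genes that reached 1 FPKM in 4 or more of them. The code was tested on simulated data. FPKM keep no read totals, so the sampling error of single values is known only roughly, and low genes are the least certain.

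The 40 gene lists (28 pathway, 12 marker) and the libraries compared were chosen with earlier results of these data known, and lists were described without a test. Some genes are not reported here. Named genes were DEGs, at most the 20 of largest log2 fold change in each direction, and list members. Others are said to be chosen after their values were seen. Promoters, positions and overlaps came from RefSeq for GRCm38.p6. Alternatives changed the pseudocount, filter, scaling, model and libraries. Removal of the GC trend was added after seeing the data.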

Additional observations from a re-analysis of the deposited data

Results flagged for a closer look

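In each diet group the gap between the highest or the lowest mouse and its nearest neighbour was divided by the range of the 4 mice, and a mouse was taken to stand apart where this ratio exceeded Dixon's 95% critical value. This was done for 234 groups (the named genes, the summarised lists and 3 library measures), and 24 had such a mouse. Chance marks about 1 in 20 groups, so some of the 24 would be seen by chance alone, and no single case carries weight by itself.

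HFD614 was the mouse apart in 7 of the 24. It was the highest of its group for the cholesterol synthesis list (ratio 0.924), for Nsdhl (0.924) and Sqle (0.923) of that list, for C1s2 (0.998) and for Alb (0.868), and the lowest for Cd74 (0.861) and Fabp1 (0.853). CD606 stood apart in 5, as the highest CD mouse for Cxcl10 (0.863), Dnajc3 (0.857) and Hba-a1 (0.850) and the lowest for Gas6 (0.901) and for Adipoq, which was at 0 there and at 0.03 FPKM in the other 3 (1.0). HFD616 was the highest for Ctrb1 (0.879), Manf (0.838) and Eif2ak3 (0.836). HFD611 was the highest for Fgg (0.911) and the lowest for Slc2a2 (0.916) and Slco2a1 (0.876). HFD617 was the highest for both insulin genes, Ins1 (0.981) and Ins2 (0.969). CD608 was the highest for Trib3 (0.866) and Cyp2c29 (0.859), CD601 for Saa1 (0.929) and CD605 for Cidea (0.849).

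A diet effect at week 24 below the mean effect of weeks 12, 16 and 20 passed the test of that difference in C1s2 (-4.07), Fam25c (-1.69), Gas6 (-1.43), Cd163 (-1.20) and Csf2rb (-0.94), all in log2 units and the report gives the values of single mice for C1s2, Cd163 and Gas6.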

How the results depend on the processing

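No paired analysis was possible because the mouse numbers differ between the diets. The 85 genes past the test became 31 with a filter of 5 FPKM (6343 genes tested) and 370 in 1 fit of all 48 liver libraries, 70 of them shared, and ranged from 14 to 136 without single mice. The 39 DEGs became 59 with a pseudocount of 0.1, 20 with the 5 FPKM filter and 76 with a 1.5-fold minimum, and ranged from 11 to 64 without single mice. The 5 genes with a different effect at week 24 became 2 against weeks 4 to 20 and 8 against week 20 alone, and ranged from 1 to 9. The causes of these shifts were not tested beyond the number of genes and libraries that each setting removed or added. All other settings stayed within 1.5 times of the reported counts. None of the 40 named genes past the test changed sign under any alternative run.

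Sign changes were limited to named genes without a call. They were seen with median-ratio and upper-quartile scaling for Canx (-0.046 and -0.044) and Dnajc3 (-0.0072 and -0.0054). Without single mice the log2 fold change ran from -0.25 to 0.11 for Alb (sign changed without CD605, CD606, HFD611 or HFD616), from -0.050 to 0.20 for Canx (CD601, HFD611 or HFD616), from -0.30 to 0.30 for Cd5l (CD608 or HFD614), from -0.019 to 0.26 for Dnajc3 (HFD611 or HFD616), from -0.37 to 0.11 for Gstp1 (HFD614 or HFD616) and from -0.63 to 0.069 for Plin2 (CD606 or HFD614). Without HFD617 the sign changed for Ins1 (from -0.75 to 0.97), Ins2 (from -0.76 to 1.15, also without CD608), Ddx3y (from -0.28 to 0.16) and Ecm1 (from -0.040 to 0.48), without CD601 for Fasn (from -0.090 to 0.26), without HFD616 for Hsp90b1 (from -0.024 to 0.49) and without HFD614 for Fn1 (from -0.13 to 0.045). The cause was not tested. Of 39 list medians 8 changed sign under some alternative, 4 of them under median-ratio scaling.

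With 4 mice a group and many calls lost when 1 mouse was left out, a gene short of the threshold is not shown to be alike between diets. FPKM hold no counts, so error from depth was not estimated apart from the spread between mice. Genes near 1 FPKM rest on about 30 fragments per kilobase. Whole liver mixes cell types, copies of gene families share fragments, and diet composition, the GC trend of HFD617 and the pancreatic transcripts in HFD616 and HFD617 were not modelled in the reported fit.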

Other observations

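Among genes of glucose metabolism and insulin signaling, 14 of 21 tested had a positive log2 fold change, 12 under median-ratio scaling, with a median of 0.19 and no call. The groups of 5 genes did not overlap, 4 on the higher side (8.14% of all genes) and 1 on the lower (1.92%). Txnip, a glucose-responsive regulator of uptake, was at 38.9, 29.8, 49.7 and 49.6 FPKM in CD and 137, 106.2, 107 and 51.6 in HFD, HFD617 lying next to the CD livers (log2 fold change 1.18, SE 0.28, adjusted p = 0.094). Slc2a2, the glucose transporter GLUT2, was at 51.3, 68.7, 64.5 and 71.4 FPKM in CD and 81.2, 97.1, 98.6 and 98.0 in HFD (0.55, SE 0.13, adjusted p = 0.093). Pck1, the gluconeogenic carboxykinase, was the only one of the 5 that was lower, at 1216, 774, 774 and 961 FPKM in CD and 620, 535, 685 and 500 in HFD (-0.66, SE 0.18, adjusted p = 0.119).

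Cyp2b9, a cytochrome P450 of female mouse liver, was at 0.92, 4.03, 0.37 and 7.88 FPKM in these male CD livers and at 6.49, 51.0, 44.6 and 55.1 in HFD. HFD611 overlapped the CD range, and the log2 fold change of 3.26 (SE 0.82) did not pass (adjusted p = 0.122). Of the female-biased list 9 of 26 genes were tested, 6 of them positive (median 0.29), and of the male-biased list 22 were tested, 19 of them negative (median -0.41), both without a call. In each list 1 tested gene reached the filter through the CD livers, so these counts and medians support nothing by themselves.

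Immediate early genes had 12 positive values of 14 (median 0.56) and no call, led in level by Zfp36. Btg2 was the only one without overlap, at 3.66, 1.82, 2.32 and 4.07 FPKM in CD and 18.1, 12.1, 7.05 and 4.81 in HFD (adjusted p = 0.110). Clock genes had 11 positive values of 16 (median 0.32) and no call, and Dbp, whose level follows the time of day, ranged from 2.31 to 43.5 FPKM in CD and from 35.0 to 73.5 in HFD. Whether the time of collection differed between mice is not given in the sources used here.

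Of 5 tested MHC class II genes all were positive and none passed. Their carrier Cd74 was at 27.2, 34.8, 23.1 and 28.2 FPKM in CD and at 64.0, 20.7, 64.2 and 58.2 in HFD, so that HFD614 was below all CD livers and the other 3 were far above. Interferon-stimulated genes had 17 positive values of 19, 13 under median-ratio scaling (median 0.27), and ceramide and sphingolipid genes 12 of 16 (median 0.12), 9 under that scaling, both without a call. Apolipoproteins had 14 positive values of 19 (median 0.13) and no call. Bile acid genes (9 positive of 23), secreted hepatokines (13 of 24) and proliferation genes (4 of 9) had no call and medians that changed sign under at least 1 alternative. All 5 tested erythroid genes were negative without a call, Hba-a1 ranging from 57.4 to 429 FPKM in CD and from 17.9 to 297 in HFD. The 8 tested genes that the study names for insulin resistance were all positive, under median-ratio scaling too, with a median of 0.23. The 1 call (0.65% of all genes on the higher side) was the Eif2ak3 given above.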
